A study of Mus musculus with 18 samples.

Results

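Whole mouse brain was compared with 5 kinds of immune cell on Illumina BeadChip expression arrays. The comparison sets the 3 arrays titled Brain against 5 immune groups of 3 arrays each, whose group means get equal weight, so that all 18 arrays of the series enter. The brain samples are labelled as whole brain from male C57/BL6 mice. The immune samples, naive CD4 T cells (helper cells before their first antigen), the helper subsets Th1 and Th2, B cells and dendritic cells (antigen-presenting cells), are labelled as wt, C57/BL6 and male and female together, and the design text calls the 3 arrays of each group biological replicates. The labels and design text do not state age, how the cells were isolated or cultured, or whether blood was removed from the brains. Of 45281 probes, 19872 had a single gene symbol and a detection p under 0.01 on at least 3 arrays, and the brightest probe of each gene gave 12094 genes. The question of the series was how expression and DNA methylation in immune cells differ from those in a tissue outside the immune system.

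Brain is a mixture of neurons, which signal through voltage-gated channels and release transmitter from synaptic vesicles, and of glia: oligodendrocytes, which wrap axons in myelin, astrocytes, which take up transmitter and buffer ions, and microglia, the resident macrophages. It also holds vessels, ependyma and the choroid plexus, the epithelium that makes cerebrospinal fluid. Leukocytes share a blood-lineage programme of adhesion, motility and antigen receptor signalling genes, and carry abundant MHC class I molecules, which show peptides to T cells.

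All values are log2 normalized signal (background-corrected, with an offset of 16), on which the lowest signal called detected ran from 4.58 on the brain arrays to 5.71 on Th1 replicate 3. Values over the immune arrays are the lowest, the median and the highest of 15. A gene passed at a limma adjusted p under 0.05 and a log2 difference of at least 1 in either direction. Where no array of the dimmer side detected a probe, the fold is a lower bound, set against the lowest signal called detected on each of those arrays. It is written "at least" and refers to the equally weighted immune mean, so a single immune group can differ by less. In tissue RNA, fewer cells of a type and less RNA per cell cannot be told apart.

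The brain arrays detected 20377 to 20497 probes, against 12564 to 16259 on the immune arrays. Brain arrays correlated at r = 0.992 to 0.996 with each other across genes and at 0.434 to 0.499 with the immune arrays, as a description, since genes are not independent. Background signal was 34.6 to 37.7 on the brain arrays and 34.4 to 39.0 on the T cell arrays, but 49.2 to 54.9 on the B cell and 46.6 to 48.0 on the dendritic cell arrays. Set against the 3 T cell groups alone, 6483 genes passed, 3230 higher and 3253 lower in brain. Xist, the RNA that coats the inactive X chromosome of female cells, was undetected on the 3 brain arrays, labelled male, and detected on all 15 immune arrays, labelled male and female, and was at least 29.2-fold lower in brain.

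One of the 3 brain arrays stood apart in a small set of genes, chosen here after their values were seen. Of 10284 genes detected on all 3 brain arrays, 35 were at least 1 log2 unit higher on replicate 1 than on both others, against 2 for replicate 2 and 1 for replicate 3. Sgk1, a kinase that regulates ion transport, stood at 12.37, 10.38 and 9.96 on brain replicates 1, 2 and 3. Fkbp5, a chaperone of the glucocorticoid receptor, stood at 8.01, 6.13 and 6.08. Both genes are known to be induced by glucocorticoid hormones. The cell cycle inhibitor Cdkn1a stood at 8.84, 6.18 and 6.73, and the hypoxia-related factor gene Hif3a at 7.79, 5.44 and 5.24. Replicate 1 was the high one for each of these 4 genes, and for 18 of the 24 genes with the largest spread among brain arrays it stood at least 1 log2 unit from both others. The acute-phase gene Serpina3n stood at 9.73, 9.55 and 7.10, with replicate 3 low, and Tph2, the serotonin-synthesis enzyme of the brainstem raphe, at 7.30, 5.45 and 7.06, with replicate 2 low. The source of these differences was not tested. Without brain replicate 1 the comparison passed 6310 genes, against 6327 with it, while Cdkn1a, at -0.72 with all arrays and not passed, then passed at -1.51.

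**Figure D1:**
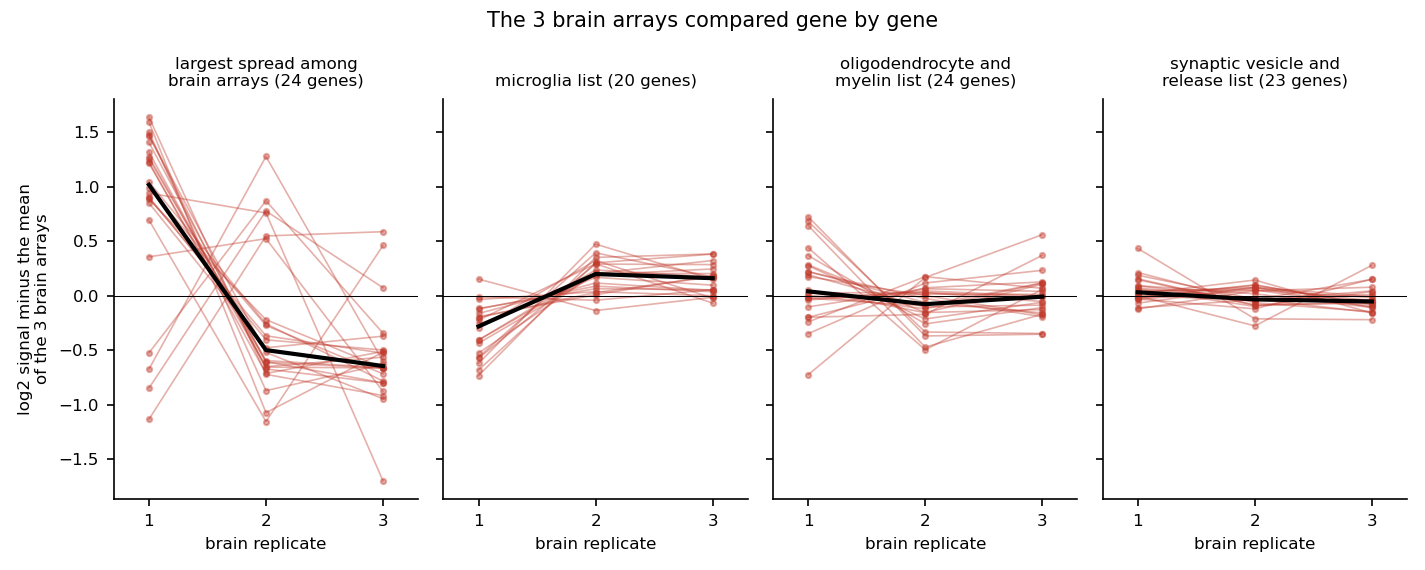
Log2 signal of each gene minus its mean over the 3 brain arrays (vertical axis) by brain replicate (horizontal axis); thin lines are genes detected on all 3 brain arrays and the thick black line is their median. The first panel holds the 24 genes with the largest spread among brain arrays, and most of its lines stand high on replicate 1, whereas synaptic genes lie close to 0 on all 3 arrays and microglial genes lie low on replicate 1.

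Across the arrays 6327 of 12094 genes passed (52.3%), 3113 higher (25.7%) and 3214 lower (26.6%) in brain. All 3 brain arrays lay above all 15 immune arrays for 3437 genes (28.4%) and below them for 3169 (26.2%). The median difference over all genes was -0.15, and every list median below is to be read beside it. Another scaling of the arrays moves that zero point. Higher genes made up 49.2% of the passing genes with quantile normalization, 69.6% with median scaling, 58.7% with cyclic loess and 66.4% with the authors' scaled signal, where the median over all genes was 0.47, 0.21 and 0.17 for the last 3.

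**Figure D2:**
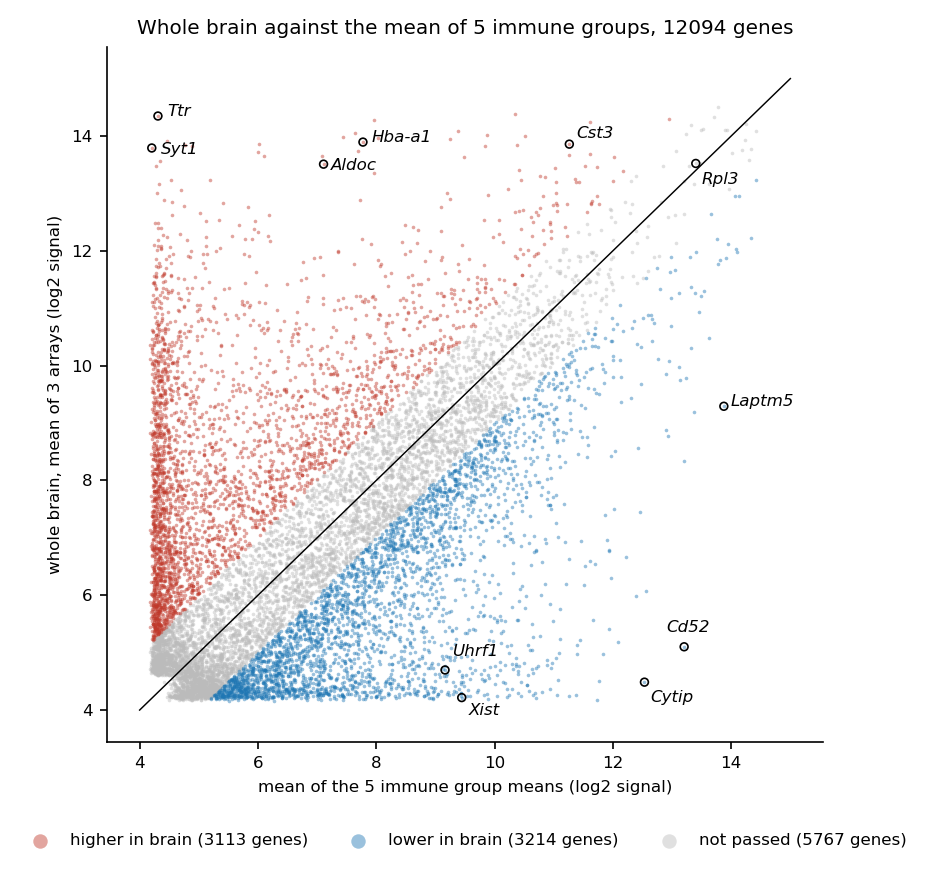
Mean log2 signal of the 3 brain arrays (vertical axis) against the averaged means of the 5 immune groups (horizontal axis) for 12094 genes; red points passed higher in brain, blue points lower, grey points did not pass, and the line marks equal signal. The red column at the left edge holds genes near background in the immune groups, with Syt1 and Ttr at its top, and Cd52 and Cytip lie at the lower right.

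The genes on each side differed in where they were detected. Of the genes higher in brain, 39.4% were detected on no immune array. They entered the test through the brain arrays alone, which favours a higher call: 15.9% of all genes, 1923, were detected on brain arrays and on no immune array, and 1225 of these were higher. Of the genes higher in brain, 40.9% varied among the 5 immune groups. Of the genes lower in brain, 21.8% were detected on no brain array (11.2% of all genes), and 73.6% varied among the immune groups. Those detected on no brain array entered the test through the immune arrays alone, which favours a lower call. Over all genes 6463 (53.4%) varied among the 5 immune groups, by a limma F test at adjusted p under 0.05 and a range of group means of at least 1. The median range of the 5 immune means was 0.73 for genes higher in brain and 1.53 for genes lower in brain.

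Single immune groups gave similar totals, from contrasts that share the brain arrays. Brain differed from naive CD4 T cells in 6442 genes (53.3%), from Th1 cells in 6733 (55.7%), from Th2 cells in 6824 (56.4%), from B cells in 6323 (52.3%) and from dendritic cells in 6242 (51.6%).

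Genes with the largest differences in each direction come first. Ttr, the thyroid hormone carrier made by the choroid plexus, stood at 14.30, 14.31 and 14.43 on the brain arrays, against 4.19, 4.26 and 4.62 on the immune arrays. It was at least 554-fold higher in brain and undetected on every immune array. Syt1, the calcium sensor of synaptic vesicles, stood at 13.76, 13.84 and 13.77, against 4.16, 4.19 and 4.29, at least 376-fold higher. Cplx1, complexin, which clamps the vesicle fusion machinery, stood at 13.54, 13.64 and 13.51, against 4.21, 4.29 and 4.65, at least 321-fold higher. The brain arrays lay close together and above all immune arrays for each of these 3 genes. Cldn11, the claudin of myelin tight junctions, stood at 13.76, 13.33 and 13.35 on the brain arrays, against 4.19, 4.25 and 4.60. Brain replicate 1 was the high one, and the gene was at least 304-fold higher in brain. Sh3gl2, endophilin A1, which works in vesicle recycling, was at least 219-fold higher, the Ras exchange factor gene Rasgrf1 at least 256-fold and the neuron and muscle elongation factor gene Eef1a2 at least 201-fold.

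Cd52, a small surface glycoprotein of lymphocytes, stood at 4.99, 5.20 and 5.12 on the brain arrays, against 12.36, 13.60 and 13.78 on the immune arrays. It was detected on all 3 brain arrays, 8.10 log2 units below the immune mean (SE 0.08; limma adjusted p = 3.53e-21). Cytip, which regulates leukocyte integrin adhesion, stood at 4.46, 4.51 and 4.49, undetected, against 10.78, 12.80 and 13.40, at least 248-fold lower. Cd69, an early activation marker, stood at 4.19, 4.18 and 4.18, against 8.82, 11.88 and 12.90, at least 142-fold lower. The brain arrays lay below all immune arrays for each of these 3 genes. Gpr18, a lipid-sensing receptor, was at least 112-fold lower in brain and the adhesion receptor gene Cd2 at least 103-fold. The actin regulator gene Gmfg was at least 90.4-fold lower and Rac2, the blood-cell Rac GTPase, at least 81.9-fold. Cd2 differed by -5.07 from dendritic cells and by -8.08 from Th1 cells.

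**Figure D3:**
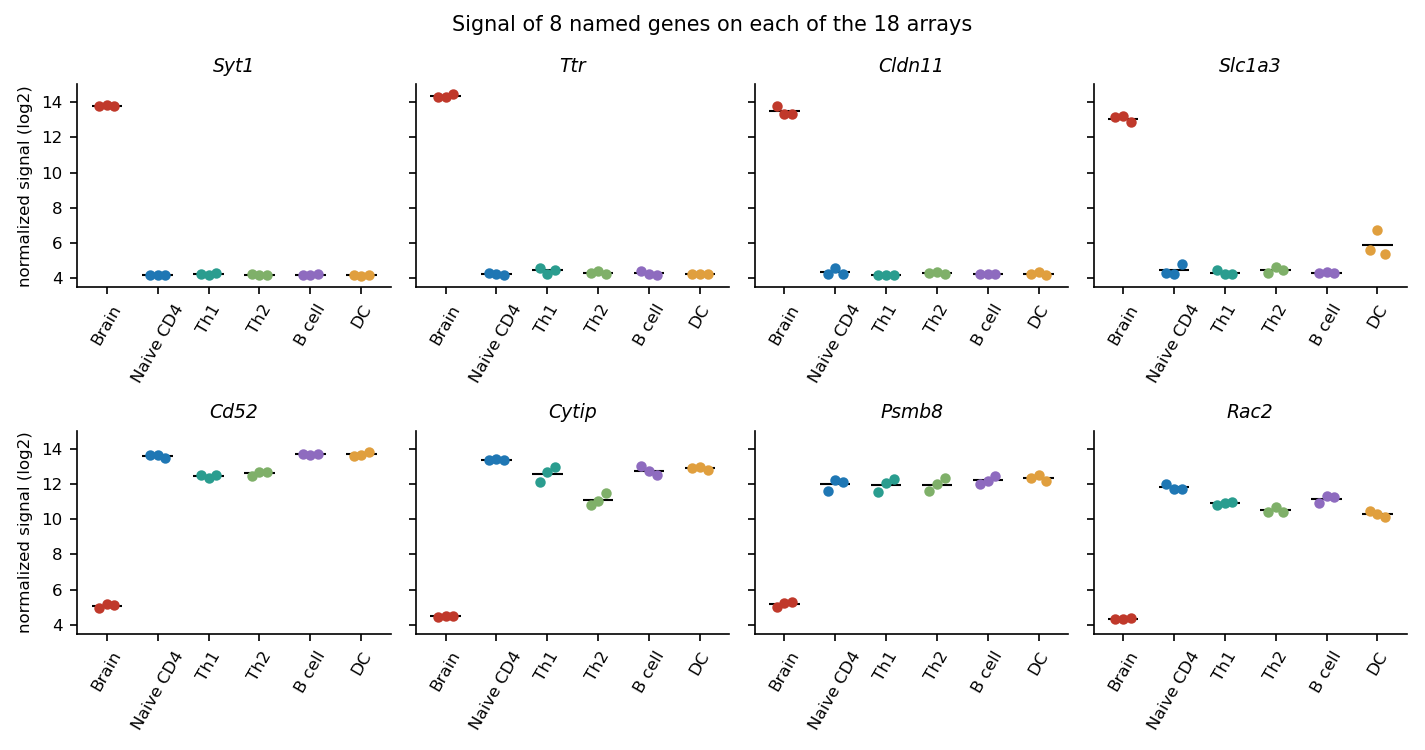
Normalized log2 signal (vertical axis) of 8 named genes on each of the 18 arrays, by group (horizontal axis, brain at the left); points are arrays and bars are group means. Syt1, Ttr and Cldn11 sit at 4.62 or below on every immune array, Slc1a3 reaches 6.72 on a dendritic cell array, and Cd52, Cytip, Psmb8 and Rac2 are low on all 3 brain arrays and high in every immune group.

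The 250 bases before the transcription start are shown for 3 genes of high signal in brain (Syt1, Cplx1 and Cldn11) and for Cytip and Gpr18, undetected there, because the title of the series concerns CpG islands. Sequences and starts are those of RefSeq on GRCm38.p6, read 5′ to 3′ on the strand of the gene, with CpG dinucleotides in capitals. The stretch for Syt1 lies at chr10:109010976-109011225 (minus strand, the more upstream of 2 listed starts), Cplx1 at chr5:108550028-108550277 (minus), Cldn11 at chr3:31149670-31149919 (plus), Cytip at chr2:58160123-58160372 (minus) and Gpr18 at chr14:121915889-121916138 (minus).
Syt1: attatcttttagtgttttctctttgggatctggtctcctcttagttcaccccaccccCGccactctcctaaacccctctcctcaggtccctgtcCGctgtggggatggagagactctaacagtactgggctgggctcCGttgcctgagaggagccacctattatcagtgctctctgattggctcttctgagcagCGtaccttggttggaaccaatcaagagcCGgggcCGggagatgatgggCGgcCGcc
Cplx1: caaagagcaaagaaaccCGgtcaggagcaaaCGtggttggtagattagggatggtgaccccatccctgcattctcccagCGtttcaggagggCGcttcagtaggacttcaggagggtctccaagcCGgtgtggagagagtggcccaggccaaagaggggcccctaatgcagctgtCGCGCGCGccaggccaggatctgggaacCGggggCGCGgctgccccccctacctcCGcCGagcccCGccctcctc
Cldn11: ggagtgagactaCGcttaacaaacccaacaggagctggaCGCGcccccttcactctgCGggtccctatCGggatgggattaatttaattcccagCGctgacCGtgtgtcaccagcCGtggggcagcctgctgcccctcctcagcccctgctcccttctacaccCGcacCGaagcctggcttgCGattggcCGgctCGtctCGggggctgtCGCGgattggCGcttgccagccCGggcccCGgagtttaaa
Cytip: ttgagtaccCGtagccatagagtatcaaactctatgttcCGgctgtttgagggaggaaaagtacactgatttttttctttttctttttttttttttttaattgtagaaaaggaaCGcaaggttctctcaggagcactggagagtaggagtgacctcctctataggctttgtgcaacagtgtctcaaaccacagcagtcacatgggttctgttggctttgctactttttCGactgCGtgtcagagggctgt
Gpr18: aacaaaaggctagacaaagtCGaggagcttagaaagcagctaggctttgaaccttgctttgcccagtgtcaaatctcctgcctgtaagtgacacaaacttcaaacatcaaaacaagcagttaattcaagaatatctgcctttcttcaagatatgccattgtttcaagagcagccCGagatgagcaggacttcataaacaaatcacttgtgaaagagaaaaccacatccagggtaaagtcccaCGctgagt
They hold 8, 15 and 19 CpG for Syt1, Cplx1 and Cldn11, and 5 and 3 for Cytip and Gpr18, beside a median of 6 and quartiles of 2 and 16 over all 32851 promoters of the table. On both strands together, the GC box GGGCGG, which contains a CpG, occurs once each in Syt1 and Cplx1 and not in the other 3, and 32.7% of all promoters hold it. The letters CCAAT occur 2 times each in Syt1 and Cldn11 and not in the other 3, and 33.8% of all promoters hold them. A match is a description of letters and not a site of binding. These genes were picked, so their CpG counts do not describe the genes higher or lower in brain as sets. Promoters matched 78.3% of the genes higher in brain, 80.8% of those lower and 81.6% of those that did not pass. CpG content over these sets was not tested.

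Gene lists of cell types, compartments and pathways describe the comparison by role. Every count below is to be read beside the shares over all genes, 25.7% higher and 26.6% lower. A member detected on the brain arrays alone entered the test through them, which favours a higher call, so the counts of the brain lists are descriptions. Over the 17 lists of brain cells, compartments and regions, with 366 genes, 295 were higher in brain, 6 lower and 65 did not pass. Detected on no immune array were 211, beside 15.9% of all genes. Listed genes that were not tested were not analysed here.

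**Figure D4:**
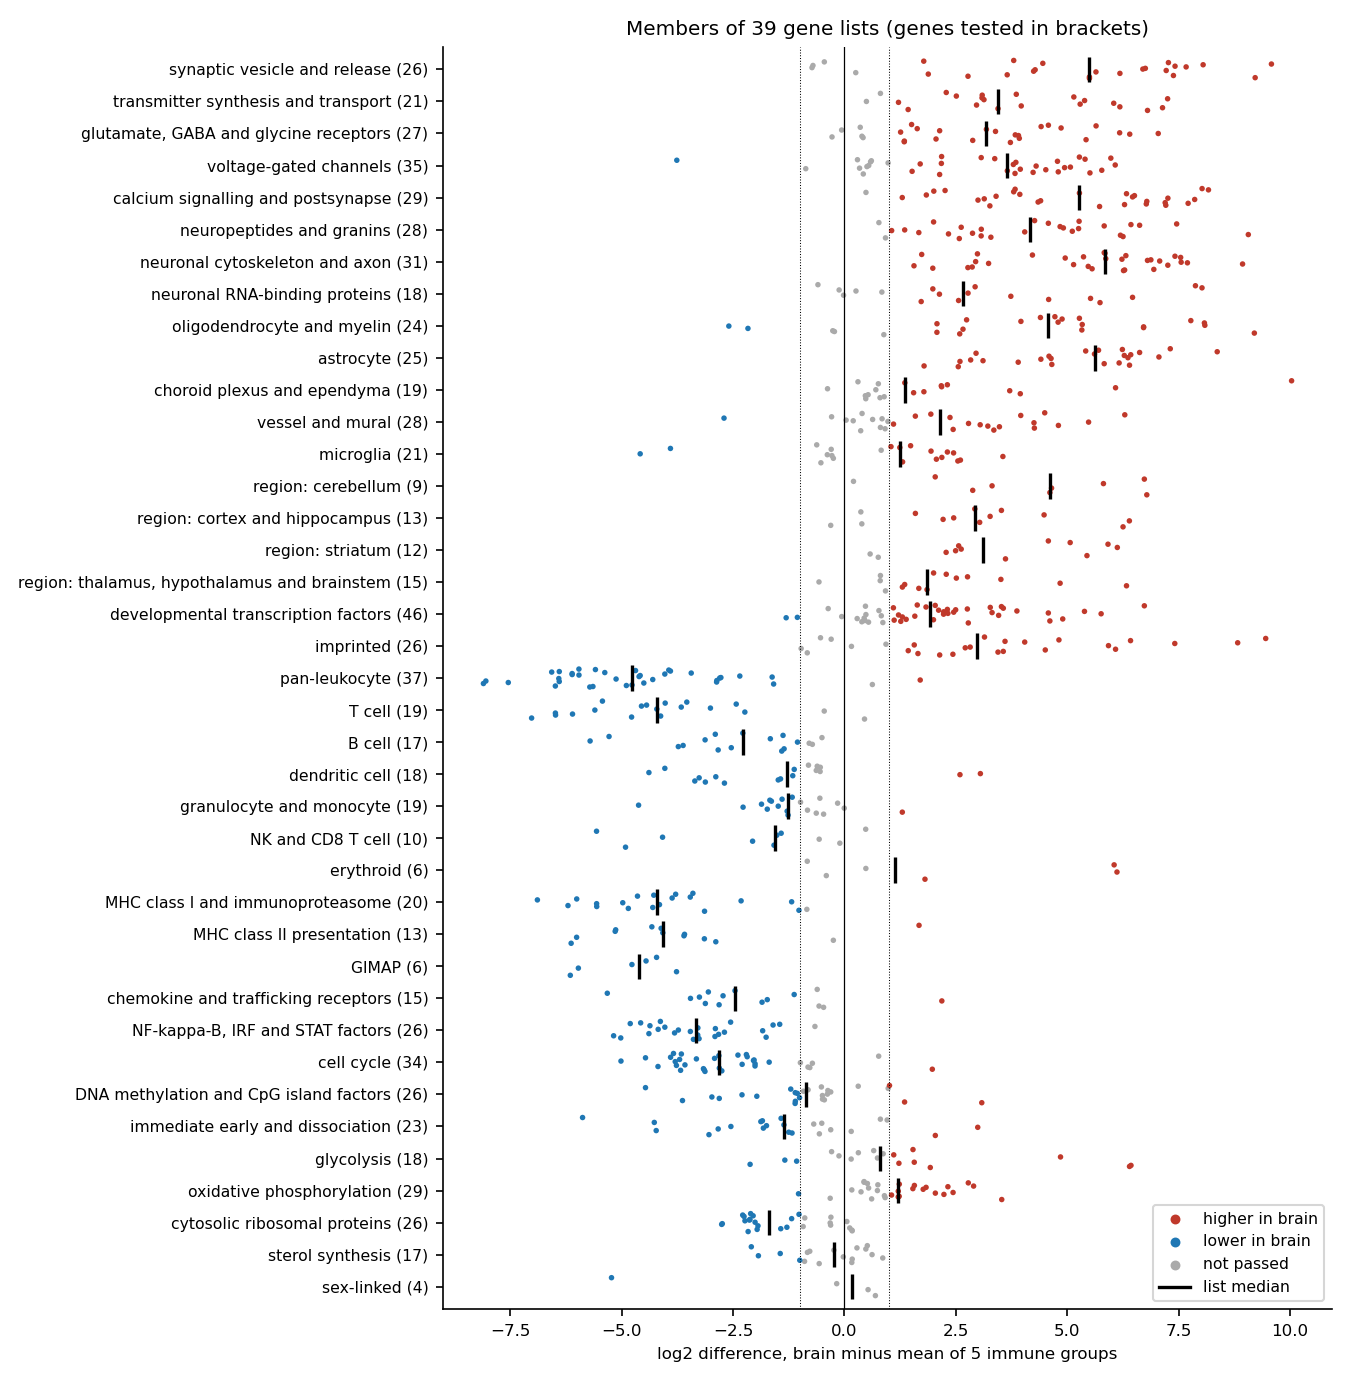
Log2 difference, brain minus the mean of the 5 immune groups (horizontal axis), of the tested members of 39 gene lists (vertical axis, genes tested in brackets); red points passed higher in brain, blue points lower and grey points did not pass, thick ticks are list medians and dotted lines mark a difference of 1 in either direction. Medians of neuronal and glial lists lie to the right, up to 5.85 for the neuronal cytoskeleton, and those of leukocyte lists to the left, down to -4.77 for pan-leukocyte genes.

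Of 31 listed genes of the synaptic vesicle and its release, 26 were tested, and 22 of them were higher in brain (25.7% of all genes were), with 0 lower and a median difference of 5.50. Syp, synaptophysin, a membrane protein of the vesicle, stood at 13.40, 13.15 and 13.17 on the brain arrays, against 4.22, 5.22 and 5.78 on the immune arrays, a difference of 8.05 (SE 0.16). All brain arrays lay above all immune arrays. Some release genes also had signal in lymphocytes: Stx1a, syntaxin 1A of the fusion machinery, chosen after its values were seen, stood at 10.87, 11.01 and 10.93 in brain and reached 8.39 on a naive CD4 T cell array. Rab3c, Unc13a, Synj1 and Sv2c did not pass. Unc13a, a vesicle priming factor, had a probe undetected on all 3 brain arrays.

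Genes of transmitter synthesis and transport were higher in brain in 19 of 21 tested (25 listed), with a median of 3.45. The inhibitory transmitter GABA led them. Slc32a1, which loads GABA into vesicles, stood at 11.71, 11.73 and 11.93 on the brain arrays, against 4.24, 4.45 and 5.30, and Gad1, which makes GABA, differed by 7.14 (SE 0.09). Gad1 reached 7.30 on a B cell array, still below the brain arrays. Th, which makes catecholamines, and Slc18a3, the vesicular acetylcholine transporter, lay above all immune arrays but differed by only 0.81 and 0.49 and did not pass. Slc17a6, a vesicular glutamate transporter named after its values were seen, stood at 11.08, 11.04 and 11.21 in brain and had a mean of 9.24 in Th2 cells, against 4.43 in naive CD4 T cells.

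Receptor subunits for glutamate, GABA and glycine were higher in 22 of 27 tested (41 listed; median 3.19), and 20 of the 27 were detected on no immune array. Gria2, a subunit of the AMPA receptor of fast excitatory transmission, stood at 11.62, 11.40 and 11.39 on the brain arrays, against 4.21, 4.44 and 4.57, at least 75.3-fold higher. Gria1 was at least 41.6-fold higher, and Gria3 differed by 6.18 (SE 0.12). Gria4, of the same receptor and named after its values were seen, differed by 1.26 (SE 0.16), the smallest difference among the 22. Grik4 and Gabrg3, at -0.06 and -0.28, overlapped the immune arrays and did not pass.

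Genes of the voltage-gated channel list, which also holds calcium-activated potassium channels, were higher in 25 of 35 tested (47 listed; median 3.66). Kcnd2, a potassium channel of dendrites, stood at 10.27, 10.42 and 10.19, against 4.14, 4.22 and 4.28, at least 33.4-fold higher, and the pacemaker channel gene Hcn2 was at least 32.6-fold higher. Kcnn4, the calcium-activated and not voltage-gated potassium channel of lymphocytes, was the only tested gene of the list lower in brain. It stood at 4.33, 4.22 and 4.31, undetected, against 5.81, 9.03 and 9.57, at least 11.1-fold lower in brain.

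Calcium signalling and postsynaptic genes were higher in 28 of 29 tested (38 listed; median 5.28). Vsnl1, a neuronal calcium sensor, stood at 12.95, 12.75 and 12.65, against 4.39, 4.75 and 5.04, at least 187-fold higher. Pvalb, parvalbumin, the calcium buffer of fast-spiking interneurons and Purkinje cells, was at least 151-fold higher, and Dlgap1, a scaffold of excitatory synapses, at least 117-fold. Pcp4, at 0.48, did not pass.

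Neuropeptides and granins, the cargo of dense-core vesicles, were higher in 26 of 28 tested (33 listed; median 4.16). Cpe, which trims peptide hormones, stood at 13.83, 13.86 and 13.83, against 4.26, 4.81 and 5.45, a difference of 9.07 (SE 0.12). Sst, somatostatin, was at least 90.2-fold higher, Cck, cholecystokinin, at least 39.4-fold, and Pmch, a peptide of the lateral hypothalamus, at least 14.5-fold. Avp and Tac2, at 0.92 and 0.77, lay above all immune arrays and did not pass, though Avp passed without brain replicate 1, at 1.01. Penk, the enkephalin precursor, named after its values were seen, overlapped the immune groups: 7.85, 7.97 and 8.25 on the brain arrays, against up to 8.40 on a Th2 array.

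All 31 tested genes of the neuronal cytoskeleton and axon (39 listed) were higher, with a median of 5.85. Kif1a, the motor that carries synaptic vesicle precursors, stood at 13.82, 13.92 and 13.75, against a median of 4.66 and a highest value of 6.03, a difference of 8.94 (SE 0.14). The kinesin gene Kif5c was at least 114-fold higher. Thy1, a surface protein of both neurons and mouse T cells, named after its values were seen, stood at 12.75, 12.84 and 12.81 on the brain arrays, against means of 12.96, 13.25 and 12.94 in naive CD4, Th1 and Th2 cells. It passed at 1.74 against the mean of the 5 groups, which holds B cells and dendritic cells with means of 6.80 and 9.36.

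Neuronal RNA-binding proteins were higher in 13 of 18 tested (20 listed; median 2.67). The splicing factors Rbfox1 and Rbfox3, the second of which is the neuronal marker NeuN, were at least 142-fold and at least 124-fold higher, and Elavl3 at least 45.4-fold. Fmr1, the fragile X protein, stood at 6.32, 6.37 and 6.31 on the brain arrays, against 5.64, 6.30 and 6.91, a difference of -0.02 that did not pass.

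Myelin and oligodendrocyte genes were higher in 19 of 24 tested (32 listed; median 4.56). Mobp, a protein of compact myelin, stood at 13.31, 12.30 and 12.28, against 4.26, 4.52 and 4.89, at least 169-fold higher, with brain replicate 1 the high one. Mal, of the same membrane, stood at 11.90, 10.81 and 10.83, in the same order, and was named after its values were seen. Olig1, a transcription factor of the lineage, was at least 143-fold higher. Mbp, myelin basic protein, depends on the probe. Its brightest probe over all arrays, which reads 7.38, 7.42 and 7.41 in brain against 8.82, 10.27 and 10.61, was 2.59 log2 units lower in brain (SE 0.09), while its other 4 detected probes were higher in brain by 2.76, 3.67, 6.27 and 8.83. Gsn, gelsolin, an actin-severing protein, likewise had a probe at -2.16 and another at 1.16, and its mean over probes, at -0.50, did not pass.

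All 25 tested astrocyte genes (29 listed) were higher, with a median of 5.61. Slc1a3, the glutamate transporter GLAST, stood at 13.14, 13.20 and 12.86, against 4.24, 4.37 and 6.72, a difference of 8.37 (SE 0.20). The highest immune value was on a dendritic cell array. Ttyh1 was at least 79.8-fold higher and Gpm6a at least 68.8-fold. Some astrocyte genes were also present in immune groups, and 2 of those are named after their values were seen. Gja1, the gap junction protein connexin 43, stood at 12.12, 11.88 and 11.99 in brain, with means of 11.71 in Th1 and 11.34 in Th2 cells, against 4.60 in naive CD4 T cells. Apoe, a lipid carrier, stood at 10.97, 10.97 and 10.98 in brain and had means of 9.11 in dendritic cells and 8.44 in B cells. Cst3, the protease inhibitor cystatin C, stood at 13.78, 13.83 and 13.96 in brain, inside the range of the immune arrays, which reached 14.10 on a dendritic cell array.

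Choroid plexus and ependymal genes were higher in 10 of 19 tested (25 listed; median 1.36), with Ttr far above the rest. Of the 19, 12 were detected on no immune array, and 7 were higher with an offset of 50 and 15 with median scaling. Igf2, a growth factor of choroid plexus and meninges, stood at 11.18, 11.06 and 10.94, against 4.40, 4.72 and 6.08, a difference of 6.09 (SE 0.14). Clic6 was at least 7.81-fold higher. Foxj1, the regulator of motile cilia, stood at 4.64, 4.72 and 4.55, within the range of the immune arrays, and did not pass.

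Vessel and mural genes were higher in 17 of 28 tested (34 listed; median 2.16). Sparc, a matrix protein of endothelium, stood at 11.39, 10.72 and 10.75, against 4.19, 4.23 and 6.80, a difference of 6.29 (SE 0.15). The matrix proteoglycan gene Dcn was at least 14.9-fold higher. Pecam1, shared by endothelium and leukocytes, was 2.70 lower in brain (SE 0.15).

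Microglial genes were higher in 12 of 21 tested (24 listed; median 1.24), and 6 of the 21 lay above all immune arrays. Without background correction 8 were higher, with an offset of 50 again 8, and with the arrays fitted as 2 groups 9. Fcrls, a microglial Fc receptor-like gene, stood at 7.59, 8.57 and 8.65 on the brain arrays, against 4.19, 4.27 and 7.06, a difference of 3.56 (SE 0.18). Brain replicate 1 was the low one, as it was for 18 of the 20 members detected on all 3 brain arrays. C1qb and C1qc, subunits of complement C1q, differed by 2.55 and 2.60 but overlapped the immune arrays through the dendritic cells, which reached 10.16 and 9.68. Cx3cr1, the fractalkine receptor, overlapped them in the same way. Laptm5 and Selplg, which all leukocytes carry, were lower in brain, Laptm5 at 9.13, 9.41 and 9.34, against 13.46, 13.85 and 14.23.

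Genes marking regions of the brain were present from each region listed. Cerebellar genes were higher in 8 of 9 tested, with Cbln1 of granule cells at least 65.3-fold and Pcp2 of Purkinje cells at least 27.6-fold. Genes of cortex and hippocampus were higher in 10 of 13, with Lamp5 at least 44.6-fold. Striatal genes were higher in 10 of 12, with the dopamine signalling gene Ppp1r1b at least 36.1-fold, while the dopamine receptor gene Drd2, at 0.76, did not pass. Genes of thalamus, hypothalamus and brainstem were higher in 11 of 15. Nrn1, of the cortex and hippocampus list, stood at 11.42, 11.52 and 11.81 in brain and reached 11.28 on a Th1 array.

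Developmental transcription factors were higher in 32 of 46 tested (70 listed; median 1.92), and 33 of the 46 were detected on no immune array. Zic1 was at least 58.1-fold higher, Meis2 at least 29.7-fold and Nfib at least 22.4-fold. Nfib depends on the probe. With probes required to be detected on all arrays of brain and of an immune group, another probe stood for it, at 0.21, and did not pass. Hoxa7 and Hoxb4, of the trunk and blood lineages, were lower, Hoxa7 at least 1.95-fold and Hoxb4 by 1.06 (SE 0.21). Neither passed without the dendritic cell group, at -0.91 and -0.79, without background correction, at -0.97 and -0.66, with an offset of 50, at -0.67 and -0.58, or against the T cell groups alone, at -0.91 and -0.47. Hoxb4 also did not pass with median scaling, at -0.81, in the authors' scaled signal, at -0.62, without the B cell group, at -0.88, or with the arrays fitted as 2 groups, at -1.06.

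Imprinted genes, which are expressed from 1 parental copy, were higher in 20 of 26 tested (39 listed; median 2.98). Snurf, of the Prader-Willi region, stood at 13.88, 13.91 and 13.97, against 4.21, 4.43 and 4.74, at least 411-fold higher. Ndn, necdin, of the same region, was at least 243-fold higher, and Nap1l5 at least 89.5-fold. The antisense RNA gene Kcnq1ot1, at 7.04, 7.17 and 6.90, against 5.63, 7.07 and 7.63, overlapped and did not pass.

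**Figure D5:**
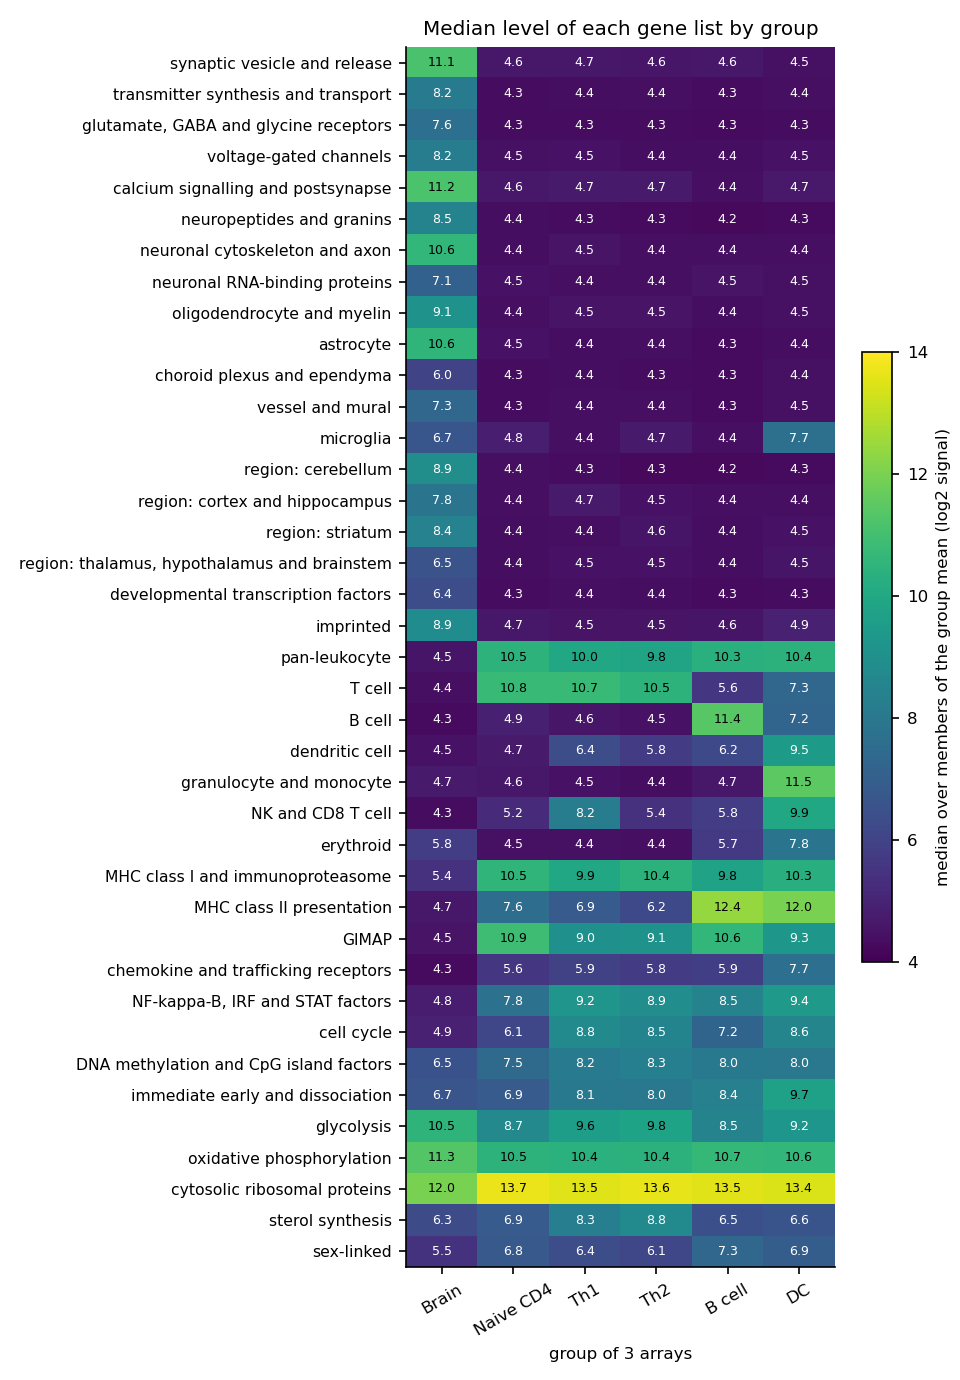
Median level of each gene list (rows, log2 signal, printed in each cell and coloured from 4 to 14) in each group of 3 arrays (columns, brain at the left). The microglia list has its highest level in dendritic cells, at 7.69, with 6.66 in brain, pan-leukocyte and MHC class I lists are lowest in the brain column, and the T cell, B cell and MHC class II lists are each high in part of the immune columns.

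On the other side, over the immune lists with 227 genes, 190 were lower in brain, 7 higher and 30 did not pass. Detected on no brain array were 104, beside 11.2% of all genes. These 104 entered the test through the immune arrays alone, which favours a lower call, so counts of the immune lists are descriptions. Pan-leukocyte genes were lower in 35 of 37 tested (26.6% of all genes were), with a median of -4.77. Their summed signal was 5597 to 5863 on the brain arrays, against 69849 to 118250 on the immune arrays, and 17 of the 37 were detected on all 3 brain arrays. Coro1a, a leukocyte actin regulator named after its values were seen, stood at 10.03, 10.14 and 10.08 in brain, against 12.26, 13.03 and 13.67. Evl, an actin regulator of growth cones as well, was the 1 gene that was higher in brain, at 9.47, 9.81 and 9.80, against 4.47, 9.10 and 9.57. It overlapped the immune arrays and did not pass with the arrays fitted as 2 groups.

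T cell genes were lower in 17 of 19 tested (median -4.21), and 13 of the 19 were detected on no brain array. Cd3g and Cd3d, chains of the T cell receptor complex, were at least 69.4-fold and at least 74.8-fold lower. Bcl11b, a T cell and cortical neuron factor, stood at 9.45, 9.77 and 9.66 on the brain arrays, against 5.41, 10.03 and 12.31. It did not pass against the 5 groups, at 0.45, and was lower than the 3 T cell groups alone, at -1.27.

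B cell genes were lower in 14 of 17 (median -2.28), with Fcmr, the IgM Fc receptor, at least 48.5-fold lower and Pou2af1, a B cell coactivator, at least 31.1-fold. Without the B cell group 9 were lower, and against the T cell groups alone 4. Dendritic cell genes were lower in 11 of 18 (median -1.30), Irf8 by 4.39 (SE 0.18), and 7 without the dendritic cell group. Fscn1, an actin bundler, and Cst3 were higher in brain than the immune mean, but both overlapped the immune arrays.

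Of the granulocyte and monocyte list 11 of 19 genes were lower (median -1.26), but 2 without the dendritic cell group, where the median was 0.11. The neutrophil granule gene Ltf stood at 4.41, 4.36 and 4.42, undetected in brain, against 4.28, 4.54 and 13.55, the last on a dendritic cell array. Lgals3, galectin 3, was 4.62 lower (SE 0.21). NK and CD8 T cell genes were lower in 7 of 10, with Nkg7 of cytotoxic granules at least 37.9-fold lower.

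MHC class I and immunoproteasome genes were lower in 19 of 20 tested (median -4.21). Psmb8, a catalytic subunit of the immunoproteasome, stood at 5.03, 5.26 and 5.28 on the brain arrays, against 11.52, 12.17 and 12.50, a difference of -6.89 (SE 0.17). Psmb9, another such subunit, stood at 4.79, 4.99 and 4.86, against 9.97, 10.80 and 11.69. Tap1, the peptide transporter, named after its values were seen, stood at 4.41, 4.28 and 4.31, undetected, against 7.89, 8.70 and 9.81, at least 21.1-fold lower. All brain arrays lay below all immune arrays for these 3 genes. B2m, the light chain, also named after its values were seen, had strong signal in brain, at 10.38, 10.45 and 10.60, against 13.22, 13.62 and 13.86. Psmb9 and Tap1 start from opposite strands of 1 short stretch, at chr17:34187331-34187555 on the strand of Tap1, shown because both genes were low in brain, with CpG dinucleotides in capitals.
Tap1 and Psmb9: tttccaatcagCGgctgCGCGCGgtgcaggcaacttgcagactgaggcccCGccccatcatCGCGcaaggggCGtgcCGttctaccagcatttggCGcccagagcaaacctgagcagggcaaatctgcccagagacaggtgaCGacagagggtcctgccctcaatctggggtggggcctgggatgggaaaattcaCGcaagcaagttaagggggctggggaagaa
Its 225 bases hold 12 CpG, 1 GC box (GGGCGG) and 1 CCAAT, counted on both strands.

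MHC class II genes were lower in 11 of 13 (median -4.08). Cd74, the invariant chain, stood at 4.79, 5.04 and 4.87, against 7.32, 9.30 and 14.50, and H2-Ab1 at 4.55, 4.83 and 4.56, against 6.50, 8.97 and 14.56. The highest immune values lay on dendritic cell arrays. Lgmn, a lysosomal protease, was 1.68 higher in brain (SE 0.17), but it overlapped the immune arrays and did not pass with the arrays fitted as 2 groups. GIMAP genes, GTPases of lymphocyte survival, were lower in 6 of 6 (median -4.61), Gimap1 by 6.15 (SE 0.12).

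Chemokine and trafficking receptors were lower in 11 of 15 (median -2.46), with Gpr183, which guides B cells and dendritic cells, 5.32 lower (SE 0.28), and Cx3cr1 the 1 gene higher. NF-kappa-B, IRF and STAT factors were lower in 25 of 26 (median -3.34). Irf4 was at least 28.9-fold lower, Irf1 stood at 6.39, 6.68 and 6.69, against 9.83, 11.78 and 12.50, and Stat4 was 4.81 lower (SE 0.08). Socs1, a feedback inhibitor, at -0.66, did not pass.

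Cell cycle genes were lower in 28 of 34 tested (median -2.81), with 9 detected on no brain array. Cenpa, the centromeric histone, stood at 6.67, 6.09 and 5.84, against 10.45, 11.30 and 11.78, a difference of -5.01 (SE 0.14), and the replication helicase gene Mcm5 was 4.46 lower (SE 0.10). All brain arrays lay below all immune arrays for Cenpa. Ccnd1, cyclin D1, was higher in brain, at 8.21, 9.21 and 8.94, against 4.91, 5.55 and 12.33, with dendritic cells highest. It did not pass with the arrays fitted as 2 groups.

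Of 26 tested genes for DNA methylation and CpG island factors, 12 were lower, 3 higher and 11 did not pass (median -0.87). With median scaling 7 were lower. Uhrf1, which brings maintenance methylation to replicated DNA, stood at 4.70, 4.60 and 4.79, against 6.32, 9.61 and 10.61, a difference of -4.46 (SE 0.16), and the methyltransferase gene Dnmt3b stood at 5.10, 5.15 and 4.81, against 7.95, 8.45 and 9.71. Dnmt1, the maintenance methyltransferase, named after its values were seen, stood at 7.10, 7.46 and 7.20, against 7.98, 8.37 and 8.78. All 3 lay below all immune arrays. Cxxc4, a CpG-binding protein of Wnt signalling, was at least 5.63-fold higher in brain and Cxxc5 1.35 higher (SE 0.09). Cxxc5 did not pass without background correction, at 0.93, or with an offset of 50, at 0.68. Zbtb38 passed at 1.01 and ended below the fold threshold without any 1 of 8 arrays, at 0.92 to 1.00: brain replicates 1 and 2, dendritic cell replicates 2 and 3, naive CD4 replicate 2, and replicate 3 of Th1, Th2 and B cells.

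The list of immediate early and dissociation genes, which respond to activity and to tissue handling, also holds heat shock chaperones. Its members were lower in 14 of 23 (median -1.36), and 8 with median scaling. Zfp36, which destabilises inflammatory transcripts, stood at 5.46, 5.21 and 5.03, against 8.69, 11.53 and 13.41. Arc, of active neurons, stood at 6.65, 8.28 and 7.57, against 4.36, 5.50 and 6.34, with brain replicate 1 the low one, and was 2.04 higher (SE 0.24). Egr1 stood at 11.51, 12.20 and 11.81, against 10.28, 11.77 and 12.96, and did not pass.

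Of 18 tested glycolysis genes, 8 were higher, 3 lower and 7 did not pass (median 0.81), beside 25.7% higher and 26.6% lower over all genes. Eno2, neuronal enolase, stood at 12.57, 12.66 and 12.64, against 4.31, 6.68 and 8.60, and Aldoc, brain aldolase, at 13.57, 13.47 and 13.48, against 5.55, 6.82 and 9.03, with all brain arrays above all immune arrays. Ldha, lactate dehydrogenase A, was 1.34 lower (SE 0.10), but -0.43 and not passed with cyclic loess. Eno3 was 2.12 lower (SE 0.11). Hk3, at -1.07, did not pass without brain replicate 1, at -0.99, or without the dendritic cell group, at -0.21.

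Genes of oxidative phosphorylation were higher in 16 of 29 (median 1.21), and in 25 with cyclic loess. Ndufb5, of respiratory complex I, stood at 9.88, 9.98 and 10.01, against 6.67, 7.01 and 7.39, a difference of 2.90 (SE 0.10). Atp5a1, of the ATP synthase, had a probe at 3.53 and another at -1.28. Cox7a1, at -1.03, did not pass without brain replicate 1, at -0.93, or without Th1 replicate 3, at -0.99, and was 0.00 with median scaling.

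Cytosolic ribosomal protein genes were lower in 17 of 26 (median -1.68), and in 9 with cyclic loess. Rpl4 stood at 7.18, 7.73 and 7.47, against 9.85, 10.32 and 10.46, while Rpl3, at 13.50, 13.57 and 13.50, against 13.25, 13.38 and 13.62, overlapped and did not pass. Sterol synthesis genes were lower in 4 of 17, beside 26.6% of all genes, and their median of -0.24 turned to 0.57 with median scaling, 0.21 with cyclic loess and 0.42 with the authors' scaled signal. Srebf2, which switches sterol synthesis on, was 2.09 lower (SE 0.18).

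Of 6 tested erythroid genes 3 were higher in brain. Hba-a1, alpha globin, stood at 14.20, 13.68 and 13.80, against 4.36, 6.82 and 13.17, and Hbb-bt, beta globin, at 13.96, 13.65 and 13.60, against 4.28, 6.51 and 13.33. The highest immune values were on a dendritic cell array, and brain replicate 1 was the high brain array for both. Car1, Hbb-b2 and Slc4a1 did not pass, and the median level of the list was 5.82 in brain and 7.83 in dendritic cells. The summed signal of the list was 26164 to 35019 on the brain arrays, against 4322 to 20702 on dendritic cell, 719 to 4343 on B cell and 117 to 545 on T cell arrays. Globin genes are near-identical copies, so that these probes are uncertain between them, and the part of red cells in other results was not tested.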

How the data were processed

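The deposited intensity values are linear signals per probe, not background-subtracted, as the values and, per the file headers, the column names show, and a detection p-value for each probe and array is deposited beside them, per the file headers. GenomeStudio is named in the submitters' processing notes. How that p was made is not stated there, and it was taken to rank a probe among negative controls. A separately deposited intensity file, scaled by the authors, served as an alternative. Neither labels nor files give a slide or scan date.

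Samples were grouped by title. Of 45281 probes, 34885 have 1 gene symbol, 18 several and 10378 are not listed in the platform annotation. Gene IDs of 34807 probes matched RefSeq (GRCm38.p6), and 0 symbols changed. Signals were background-corrected (normexp, from the detection p), offset by 16, quantile-normalized and log2-transformed (limma 3.58.1, on R 4.3.3). Figures were drawn with matplotlib 3.10.9, and tables made with pandas 2.3.3 under Python 3.11.15. A probe was kept if its detection p was under 0.01 on at least 3 arrays, and each gene was represented by its probe of highest mean (5069 genes had several, and 117 had probes passing in both directions). A linear model with 6 group means over 18 arrays was fitted (lmFit, eBayes), with Benjamini-Hochberg adjustment over 12094 genes, two-sided.

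The members and gene lists were chosen with earlier results of these data known. The rule for named genes took the 12 largest differences in each direction without overlap or clone-like names, and from each list up to 3 passing members in each direction and 2 that did not pass. Others are said to be chosen after their values were seen. On simulated data for this comparison (12094 genes), the test passed 108 of 200 genes at a 2-fold change and 199 at 3-fold. It passed 200 at both 5-fold and 8-fold, and 0 of 11294 genes left unchanged. These counts describe the simulated data alone, and error rates on the measured data were not tested. The number of arrays limits the precision. Alternatives covered background correction, offset, scaling, detection filter, probe choice, grouping of arrays, variance model, replicate block, the fold threshold, and omission of each array or immune group.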

Additional observations from a re-analysis of the deposited data

Results flagged for a closer look

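Probes without a single gene symbol were left out of the gene tests, and some were detected on brain arrays alone. Of 3899 such probes detected on at least 3 arrays, 727 were detected on all 3 brain arrays and on no immune array. By comparison, 706 were detected on no brain array and on all 3 arrays of at least 1 immune group, and 55 on no brain array and all 15 immune arrays. They are unnamed here, so their genes were not analysed.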

How the results depend on the processing

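Of 12094 genes 6327 passed, against 4859 with an offset of 50, 5219 without background correction, 5718 with the arrays fitted as 2 groups, 6507 with median scaling and 6496 with cyclic loess. With probes required to be detected on all arrays of brain and of an immune group, 7843 genes were tested. Of these, 3932 passed (50.1%), against 52.3% without this requirement. The 1631 higher calls made up 41.5% of all calls, against 49.2% without it. Under the same requirement 4202, 4384, 4438, 4046 and 3761 passed against naive CD4, Th1, Th2, B and dendritic cells. Without the fold threshold 10464 passed, 4913 higher and 5551 lower, and 9645 and 9627 against B and dendritic cells. Genes lower in brain numbered 1975 under median scaling of the arrays and 1634 in the authors' scaled signal, and the cause was not tested. Genes with probes passing in both directions numbered 62 without background correction, an alternative chosen after seeing the data.

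Leaving out 1 array at a time gave 6308 to 6337 passing genes, 3105 to 3122 higher and 3196 to 3227 lower in brain, 6385 to 6564 varying among immune groups, and 6405 to 6443, 6717 to 6771, 6771 to 6845, 6312 to 6355 and 6229 to 6243 against naive CD4, Th1, Th2, B and dendritic cells. Replicate numbers were not used to pair the brain arrays with the immune arrays. Deviations of same-numbered brain and immune arrays from their group means correlated at -0.106 to 0.0953, which cannot show whether they were paired. The fit with the replicate block passed 6329 genes and gave variation among the 5 immune groups for 6470.

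Of 7731 values of 212 named genes under other settings, 7590 kept direction and call, 67 no longer passed (20 genes), 67 newly passed (37 genes) and 7 reversed (4 genes). Mbp was 8.83 with the most variable probe and 3.79 as a mean over probes, against -2.59. Prf1 was -2.57 and -1.05 in those settings, against 0.48. Bcl11b was -1.27 against the T cell groups alone. Lyz1 was 1.42 without the dendritic cell group and 2.36 against the T cell groups alone, against -0.15. With 3 and 15 arrays fitted as 2 groups, 2 genes of the B cell list and 1 of the granulocyte and monocyte list were lower, against 14 and 11, since the spread among immune groups then enters the error.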
